A study of Mus musculus with 6 samples.

Results

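Tight junctions seal the spaces between neighbouring epithelial cells, and claudins are the membrane proteins whose combination in a cell decides how leaky that seal is and which ions pass. The 10 genes of the epithelial tight junction followed here in mouse lung were chosen by name: the claudin genes Cldn18, Cldn3, Cldn4, Cldn7, Cldn8 and Cldn10, the genes of the membrane proteins occludin (Ocln) and junctional adhesion molecule A (F11r), and the genes of the cytoplasmic plaque proteins ZO-1 (Tjp1) and cingulin (Cgn). They are 10 of 56980 genes in the deposited table, and all 10 passed the filter for testing, a mean of at least 1 TPM (a level per unit of transcript length, set to the same total in every library) over the libraries. In the lung, Cldn18 is known as the main claudin of the alveolar epithelium, where Cldn3, Cldn4 and Cldn7 are made as well, and Cldn10 is known as a claudin of the club cells that line the airways. Cldn3, Cldn4 and Cldn7 are also made by airway epithelium, so that airway against alveolar is a sharp contrast only between Cldn10 and Cldn18.

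The 6 libraries were made from lung of NSG mice, an immunodeficient strain without mature lymphocytes, taken 5 weeks after human breast cancer cells were injected into a mammary fat pad. In the Ctrl group (n = 3) these cells were MDA-MB-231, a triple-negative line of the claudin-low class, and in the DPP3_KO group (n = 3) they were MDA-MB-231/DPP3 KO, the same line with the dipeptidyl peptidase gene DPP3 knocked out. The knockout was in the tumour cells, not in the mice. The labels do not give the age of the mice, whether the knockout line was a clone, or whether the libraries came from separate mice. The p-values therefore weigh only the spread among the 6 libraries, which may be technical. The series asks how exosomal DPP3 from the tumour acts on lung metastasis.

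The comparison depends on scale. Each library sums to the same TPM, and the club cell gene Scgb1a1 alone stood at 71578 to 101282 TPM in Ctrl and 217097 to 287457 TPM in DPP3_KO. Over 15650 tested genes the median log2 change of TPM + 1 was -0.60 in the deposited values and -0.03 after median-of-ratios scaling, which divides each library by the typical ratio of its genes to their mean. Changes below are given on both scales, DPP3_KO minus Ctrl, with limma and Benjamini-Hochberg adjustment over all tested genes. As deposited 34.0% of tested genes were called lower and 1.38% higher, and after scaling 0.882% were lower and 1.90% higher. Sftpc, the alveolar type 2 surfactant gene, stood at 14519 to 38794 TPM and Ager, an alveolar type 1 gene, at 356 to 2406 TPM, so these defining markers of lung were present in every library. Heart muscle genes were present too: 6 of 8 were higher on each scale, their summed level was 489 to 988 TPM in Ctrl and 1863 to 2092 TPM in DPP3_KO, and Tnnt2, cardiac troponin T, stood at 123 to 166 TPM and 373 to 499 TPM. The neutrophil gene S100a8 ran from 394 TPM in DPP3_KO replicate 1 to 17949 TPM in Ctrl replicate 3 and did not follow the groups. In whole tissue, fewer cells of a type and less RNA per cell cannot be told apart.

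Both genes at the ends of the contrast have 2 alternative first exons, and the deposited gene-level TPM adds their transcripts together. The 250 bases before each start are shown for that reason, in the direction of transcription, from the RefSeq promoter table of build GRCm38.p6, which is not the build of the deposited values (GRCm39). The first Cldn18 start lies furthest upstream and is known as the one used in lung, the other as the one used in stomach. Capitals mark CAAGTG on either strand (CACTTG when read on the reverse strand), the core recognised by NKX2-1, the transcription factor that specifies lung epithelium.
Cldn18, first start, chr9:99717268-99717517, minus strand: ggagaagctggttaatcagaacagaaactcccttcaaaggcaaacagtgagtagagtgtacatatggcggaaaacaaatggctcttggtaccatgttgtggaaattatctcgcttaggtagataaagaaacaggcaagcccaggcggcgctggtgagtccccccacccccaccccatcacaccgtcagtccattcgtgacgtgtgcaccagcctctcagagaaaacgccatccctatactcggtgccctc
Cldn18, second start, chr9:99710064-99710313, minus strand: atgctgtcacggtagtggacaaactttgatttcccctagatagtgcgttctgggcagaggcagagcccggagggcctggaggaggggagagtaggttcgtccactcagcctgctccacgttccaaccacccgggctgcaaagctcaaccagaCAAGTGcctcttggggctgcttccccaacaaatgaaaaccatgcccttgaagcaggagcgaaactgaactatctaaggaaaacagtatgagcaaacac
Cldn10, first start, chr14:118787621-118787870, plus strand: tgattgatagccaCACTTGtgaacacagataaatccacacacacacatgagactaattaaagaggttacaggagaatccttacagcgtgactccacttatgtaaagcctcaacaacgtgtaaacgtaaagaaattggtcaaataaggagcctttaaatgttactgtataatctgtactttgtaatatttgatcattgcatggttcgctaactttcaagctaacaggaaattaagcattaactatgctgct
Cldn10, second start, chr14:118854700-118854949, plus strand: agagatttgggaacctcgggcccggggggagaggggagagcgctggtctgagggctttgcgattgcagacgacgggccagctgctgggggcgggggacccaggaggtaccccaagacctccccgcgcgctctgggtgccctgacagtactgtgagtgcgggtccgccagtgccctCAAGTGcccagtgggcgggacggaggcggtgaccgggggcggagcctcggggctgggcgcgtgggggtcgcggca
The core lay 98 bases before the second Cldn18 start, 237 bases before the first Cldn10 start and 75 bases before the second. These letters were not in the window of the first Cldn18 start. Bases just after the start were found in a transcript of the GENCODE M21 annotation for both Cldn18 windows, but for only 1 of the 2 Cldn10 windows. RefSeq windows were matched for 9 of the 10 genes, 13 windows in all, since Cldn18, Cldn7, Cldn10 and Ocln have 2 starts each. CAAGTG was in 4 of the 13 windows, of Cldn18, Cldn7 and Cldn10, against 11.6% of 32851 windows of the same length over all genes. The E-box CAGGTG, a sequence bound by Snail and ZEB repressors of epithelial genes, was in 4 of 13 windows against 17.2% of all. It stood before Cldn4, Cldn7, Ocln and F11r. AACNNGTT, the core bound by grainyhead-like factors, was in the Cgn window, 29 bases before the start, against 3.64% of all windows. All 3 motifs were searched on both strands, CAAGTG and CAGGTG both have the general E-box form CANNTG but do not overlap each other, and a match is a description of letters only. Nkx2-1 itself stood at 137, 115 and 67.8 TPM in Ctrl replicates 1, 2 and 3 and at 68.1 to 78.3 TPM in DPP3_KO, a log2 change of -0.51 (limma adjusted p = 0.167) as deposited and 0.14 after scaling.

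Cldn18, the alveolar claudin, was lower in every DPP3_KO library than in every Ctrl library. It stood at 288, 257 and 84.3 TPM in Ctrl replicates 1, 2 and 3 and at 55.3, 25.0 and 25.8 TPM in DPP3_KO replicates 1, 2 and 3. Ctrl replicate 3 held less than the other Ctrl libraries, closer to DPP3_KO replicate 1 than to them, and the groups did not overlap. The means were 210 ± 110 TPM (SD, n = 3) and 35.4 ± 17.3 TPM, a 5.93-fold difference and a log2 change of -2.45 ± 0.52 SE (limma adjusted p = 0.0188), so Cldn18 fell as deposited. After median-of-ratios scaling the groups stayed apart at 70.9 to 229 against 27.5 to 68.5, and the change was -1.80 with a 95% interval from -3.01 to -0.58, which did not pass (adjusted p = 0.109). Leaving out Ctrl replicate 1 or 2, or DPP3_KO replicate 3, ended the call as deposited (adjusted p = 0.0533, 0.0824 and 0.0590).

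Cldn10, the club cell claudin, moved the other way. It stood at 11.5, 13.8 and 13.9 TPM in the Ctrl libraries and at 24.6, 32.2 and 34.7 TPM in the DPP3_KO libraries. The Ctrl libraries lay close together and every DPP3_KO library was above them. Cldn10 rose from 13.0 ± 1.34 to 30.5 ± 5.28 TPM, 2.34-fold, with a log2 change of 1.15 ± 0.20 SE as deposited (limma adjusted p = 0.0155) and 1.78 ± 0.21 SE after scaling (adjusted p = 0.0159). Of the 10 genes it alone was called on both scales. The call as deposited was lost without Ctrl replicate 2 (log2 change 1.19, limma adjusted p = 0.0730), a setting in which 85 genes were called lower and 6 higher in all. The call after scaling was lost without Ctrl replicate 1 or 2 or DPP3_KO replicate 2 (adjusted p = 0.0674, 0.0651 and 0.0605).

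Because both genes are measured in the same library, their ratio does not depend on how libraries are scaled. Cldn10 was 0.0399, 0.0536 and 0.164 of the Cldn18 level in the Ctrl libraries and 0.444, 1.29 and 1.34 in the DPP3_KO libraries. In DPP3_KO replicates 2 and 3 the airway claudin thus stood above the alveolar one, and Ctrl replicate 3 was the Ctrl library nearest to the DPP3_KO group. The log2 ratio, taken on TPM + 1, was -3.73 ± 1.06 (SD, n = 3) in Ctrl and -0.12 ± 0.88 in DPP3_KO, a difference of 3.60 (exact two-sided permutation test, p = 0.1, the smallest that 3 libraries against 3 allow). Leaving out any 1 library kept the difference between 3.20 and 4.21 as deposited. Cldn3, Cldn4, Cldn7 and Cldn8 were higher against Cldn18 in DPP3_KO as well, with log2 differences of 3.07, 3.15, 2.65 and 3.32. The groups were apart for each (exact permutation p = 0.1), so the shift against Cldn18 was not particular to Cldn10. Cldn7 also stood above Cldn18 in DPP3_KO replicates 2 and 3, at 1.71 and 1.52 times its level.

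**Figure D1:**
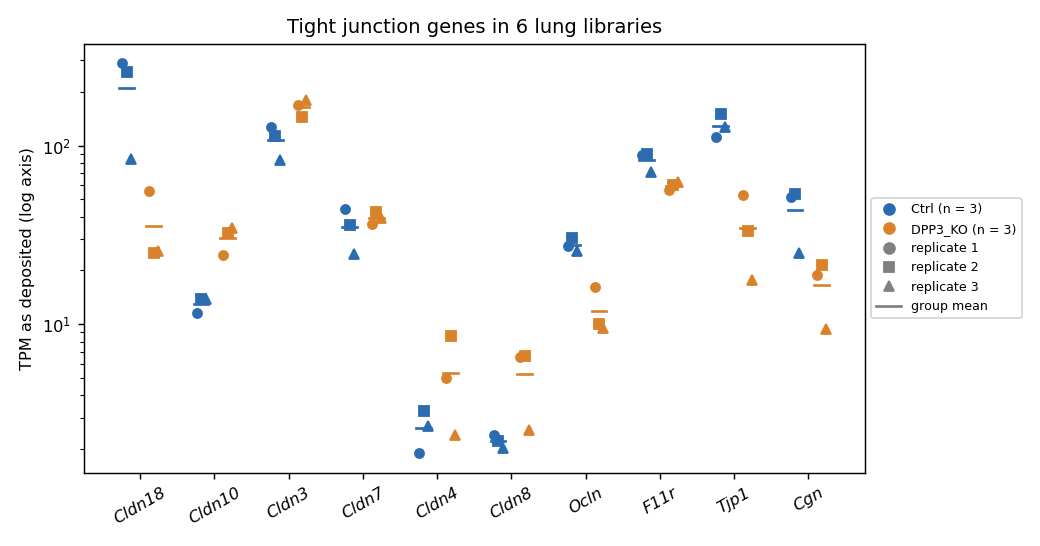
TPM as deposited on a log axis for the 10 tight junction genes in 3 Ctrl and 3 DPP3_KO lung libraries, with a symbol for each replicate and a line at each group mean. Cldn18 fell from a mean of 210 to 35.4 TPM while Cldn10 rose from 13.0 to 30.5 TPM, and Cldn4 and Cldn8 lay under 10 TPM in all libraries.

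The other claudins did not follow Cldn18. Cldn3, a barrier-forming claudin found in airway and alveolar type 2 cells, stood at 127, 113 and 82.8 TPM in Ctrl and 168, 144 and 180 TPM in DPP3_KO. All DPP3_KO libraries were above all Ctrl libraries, with a log2 change of 0.62 ± 0.21 SE as deposited that did not pass (limma adjusted p = 0.0547). After scaling Cldn3 rose by 1.27 (adjusted p = 0.0478), and once a length trend was removed as well it stood at 1.01 (adjusted p = 0.0561). Leaving out any 1 library ended that call after scaling, with limma adjusted p from 0.0695 to 0.172. Cldn7, a claudin spread along the side walls of airway and alveolar epithelial cells, stood at 44.4, 35.9 and 24.7 TPM in Ctrl and 36.5, 42.7 and 39.1 TPM in DPP3_KO. Those groups overlapped, and the log2 change was 0.20 with a 95% interval from -0.35 to 0.75 (adjusted p = 0.506), or 0.84 after scaling (adjusted p = 0.0925), where the groups no longer overlapped.

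Cldn4 and Cldn8 were the lowest of the 10 genes. Cldn4, known for its induction in injured alveolar epithelium, stood at 1.90, 3.25 and 2.70 TPM in Ctrl and 5.02, 8.56 and 2.39 TPM in DPP3_KO. The third DPP3_KO library lay within the Ctrl range, and the log2 change of 0.70 did not pass (limma adjusted p = 0.186), nor did 1.19 after scaling (adjusted p = 0.106). Cldn8, a claudin best known from kidney tubules, stood at 2.41, 2.22 and 2.04 TPM in Ctrl and 6.57, 6.65 and 2.57 TPM in DPP3_KO. The groups did not overlap, though DPP3_KO replicate 3 was only just above the Ctrl libraries. Its log2 change was 0.88 (adjusted p = 0.0735), or 1.36 after scaling (adjusted p = 0.0583), and it passed without DPP3_KO replicate 3 (1.24, adjusted p = 0.0427). Cldn3 and Cldn4 are direct neighbours among the coding genes of chromosome 5 in the GENCODE M21 annotation, yet their ratio within a library ran from 16.8 to 75.4 and did not separate the groups.

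Set as shares of the summed TPM of these 6 claudins, Cldn18 made up 60.7%, 60.4% and 40.1% in the Ctrl libraries and 18.7%, 9.64% and 9.06% in the DPP3_KO libraries. Cldn3 made up 26.7%, 26.6% and 39.3% in Ctrl and 56.7%, 55.5% and 63.3% in DPP3_KO, and so took the first place. Cldn10 made up 2.42% to 6.59% in Ctrl and 8.31% to 12.5% in DPP3_KO. The sum itself was 475, 426 and 211 TPM in Ctrl and 296, 259 and 285 TPM in DPP3_KO, so the groups differed in composition while their sums overlapped.

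**Figure D2:**
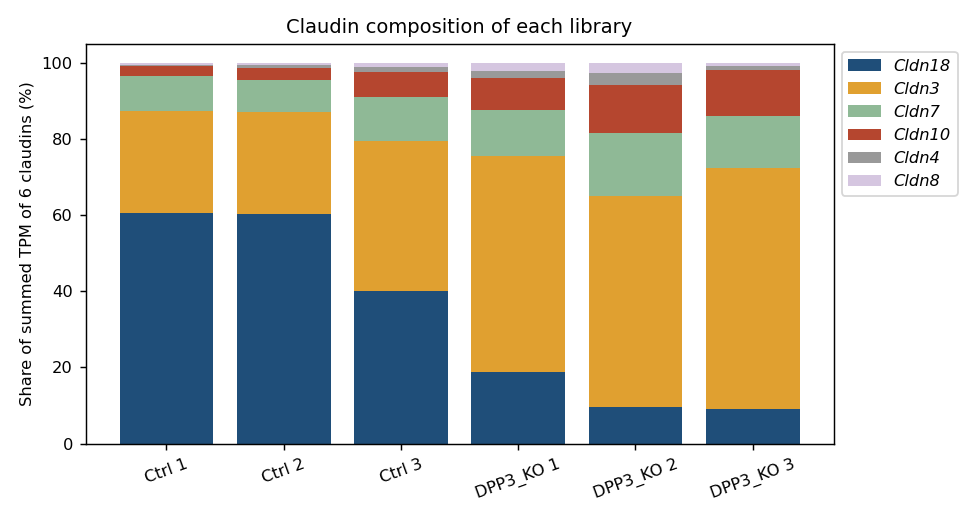
Share of the summed TPM of 6 claudin genes (percent) in each of the 6 lung libraries, one stacked bar per library. Cldn18 fills 40.1% to 60.7% of the bar in Ctrl and 9.06% to 18.7% in DPP3_KO, and Cldn3 is the largest part in all DPP3_KO libraries.

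Occludin, the tetraspan protein that joins claudins in the junction strand, had lower transcript levels in DPP3_KO. Ocln stood at 27.3, 30.4 and 25.6 TPM in Ctrl and 16.2, 9.97 and 9.53 TPM in DPP3_KO. The groups did not overlap, and Ocln fell from 27.7 ± 2.45 to 11.9 ± 3.72 TPM, a log2 change of -1.19 ± 0.23 SE as deposited (limma adjusted p = 0.0176). After scaling the change was -0.57 with a 95% interval from -1.10 to -0.03 (adjusted p = 0.195). The call as deposited was lost without Ctrl replicate 1 or 2 (limma adjusted p = 0.0524 and 0.0817). F11r encodes junctional adhesion molecule A, which is also made by endothelium, platelets and leukocytes. It stood at 89.0, 89.7 and 70.8 TPM in Ctrl and 56.6, 59.9 and 62.8 TPM in DPP3_KO, a log2 change of -0.46 that did not pass (adjusted p = 0.0663) and that was 0.19 after scaling (95% interval -0.24 to 0.61, adjusted p = 0.566), so its direction depends on the scale.

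The plaque genes were lower too. Tjp1 encodes ZO-1, the scaffold that ties claudins and occludin to actin in epithelium and is also present at endothelial junctions. It stood at 112, 150 and 126 TPM in Ctrl and 52.6, 33.3 and 17.7 TPM in DPP3_KO. Every DPP3_KO library was below every Ctrl library, and Tjp1 fell from 129 ± 19.4 to 34.5 ± 17.4 TPM, a log2 change of -1.99 ± 0.37 SE (limma adjusted p = 0.0163), or -1.35 after scaling (95% interval -2.14 to -0.55, adjusted p = 0.0839). The call as deposited was lost without Ctrl replicate 2 (limma adjusted p = 0.0752). Cgn, whose product binds ZO-1 on the cytoplasmic face of epithelial junctions, stood at 51.9, 53.8 and 25.0 TPM in Ctrl and 18.9, 21.3 and 9.44 TPM in DPP3_KO. Ctrl replicate 3 was again the lowest of its group. Cgn fell by 1.34 on the log2 scale as deposited (adjusted p = 0.0369), and stood at -0.71 after scaling (95% interval -1.49 to 0.07, adjusted p = 0.252), where the groups overlapped. Its call as deposited was lost without Ctrl replicate 1 or 2 or DPP3_KO replicate 1 or 3 (limma adjusted p = 0.102, 0.125, 0.0570 and 0.0984), and with no filter on low genes (adjusted p = 0.0831).

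Tjp1 and Cgn have the longest transcripts of the 10, at 7049 and 5039 bases in the deposited table against 1259 to 2518 for the others. Over all tested genes the median log2 change after scaling was 0.23 in the shortest group of 5217 genes and -0.22 in the longest group of 5217, and the part of length in these results was not tested beyond removing its trend. With that trend removed after median-of-ratios scaling the log2 change was -1.06 for Tjp1 and -0.49 for Cgn. For Cldn18, of 1750 bases, it was -1.95, and for Cldn10, of 2128 bases, 1.70 (limma adjusted p = 0.0265). Cldn10 was the 1 gene of the 10 called after this step.

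In all, 4 of the 10 genes (Cldn18, Tjp1, Ocln and Cgn) were lower as deposited, where 34.0% of tested genes were, and 1 (Cldn10) was higher, where 1.38% were. After median-of-ratios scaling 0 were lower (8 of the 10 genes had an unadjusted p under 0.05, Cldn18, Tjp1 and Ocln downward, against 23.1% of all tested genes) and 2 (Cldn10 and Cldn3) were higher, where 1.90% of tested genes were. The groups did not overlap for 5 genes lower and 3 higher as deposited, against 51.1% and 2.73% of tested genes, and for 3 lower and 5 higher after scaling, against 15.4% and 14.6%. The median log2 change of the 10 genes was -0.13 as deposited and 0.52 after scaling, against -0.60 and -0.03 over all tested genes. The count of 4 lower genes as deposited was 1 without Ctrl replicate 1, 0 without Ctrl replicate 2 and 5 without Ctrl replicate 3. In the last of these F11r was called lower as well (log2 change -0.57, limma adjusted p = 0.0482). Without DPP3_KO replicates 1, 2 and 3 the count was 3, 4 and 2.

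**Figure D3:**
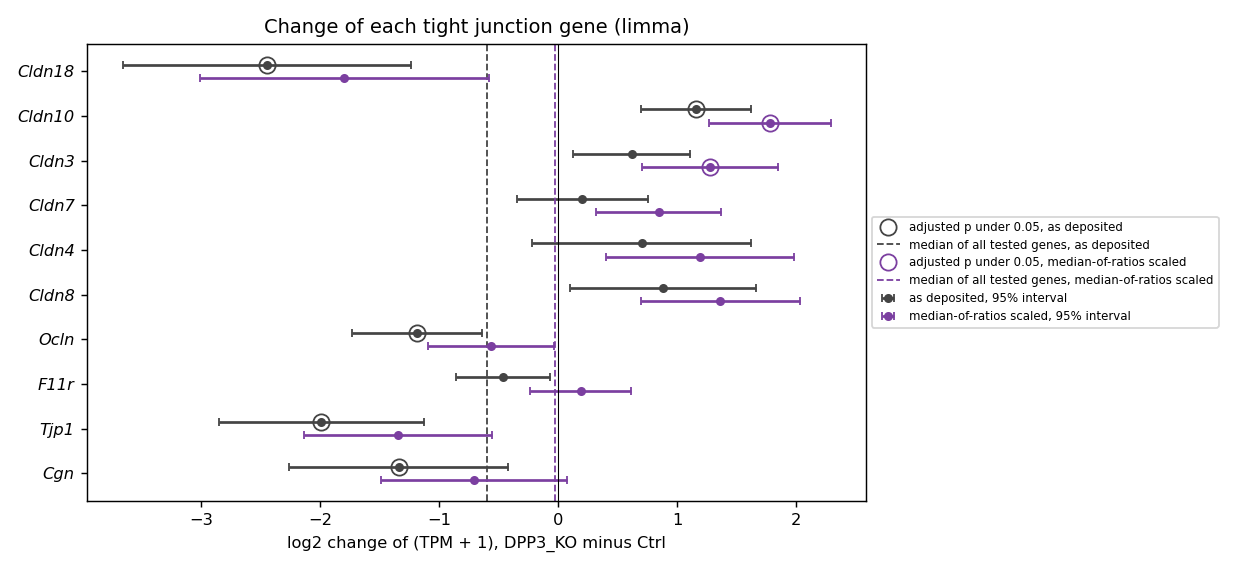
Log2 change of TPM + 1 (DPP3_KO minus Ctrl, limma) of the 10 tight junction genes with 95% intervals, on the deposited scale and on the median-of-ratios scale. Rings mark adjusted p under 0.05 and dashed lines the median of all tested genes, -0.60 and -0.03, and only Cldn10 is ringed on both scales.

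Within a library the order of the 10 levels changed as well. Cldn18 ranked first in Ctrl replicates 1 and 2 and second in Ctrl replicate 3, where Tjp1 was first. In DPP3_KO Cldn3 was first and F11r second in every library, with Cldn18 at rank 3, 6 and 5 in replicates 1, 2 and 3. Cldn10 was at rank 8 in every Ctrl library and at rank 6, 5 and 4 in DPP3_KO, and Cldn4 and Cldn8 held the last places throughout. Neighbours in the Ctrl order often did not differ beyond their spread: Tjp1, at 112 to 150 TPM, overlapped with Cldn3, at 82.8 to 127 TPM, and Cldn7 overlapped with Cgn and with Ocln.

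Epcam, a surface protein gene of nearly all epithelial cells, gave another reference within each library. It stood at 57.2, 62.3 and 47.8 TPM in Ctrl and 45.9, 49.2 and 43.4 TPM in DPP3_KO, a log2 change of -0.26 (limma adjusted p = 0.251) as deposited and 0.39 after scaling. Cldn18 was 5.04, 4.13 and 1.76 times the Epcam level in Ctrl and 1.21, 0.507 and 0.594 times in DPP3_KO. Cldn10 was 0.201, 0.221 and 0.290 times Epcam in Ctrl and 0.535, 0.655 and 0.798 times in DPP3_KO. The gap between the groups was narrow for Cldn7, whose log2 ratio to Epcam was at most -0.36 in Ctrl and at least -0.32 in DPP3_KO, and for Cldn4, at -3.72 and -3.71, where the plain ratio overlapped (0.0565 in Ctrl replicate 3 and 0.0550 in DPP3_KO replicate 3). On the log2 scale the differences from Ctrl were 1.42 for Cldn10, 1.14 for Cldn8, 0.96 for Cldn4, 0.88 for Cldn3 and 0.46 for Cldn7, against -2.19 for Cldn18, -1.73 for Tjp1, -1.08 for Cgn, -0.93 for Ocln and -0.20 for F11r. The F11r groups overlapped (exact permutation p = 0.2), and on this log2 scale the other 9 were apart, each at the smallest exact permutation p that this design allows, 0.1. Cdh1, the E-cadherin gene, stood at 111, 111 and 58.5 TPM in Ctrl and 73.5, 65.5 and 33.8 TPM in DPP3_KO and did not pass (log2 change -0.71, adjusted p = 0.161, and -0.06 after scaling).

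**Figure D4:**
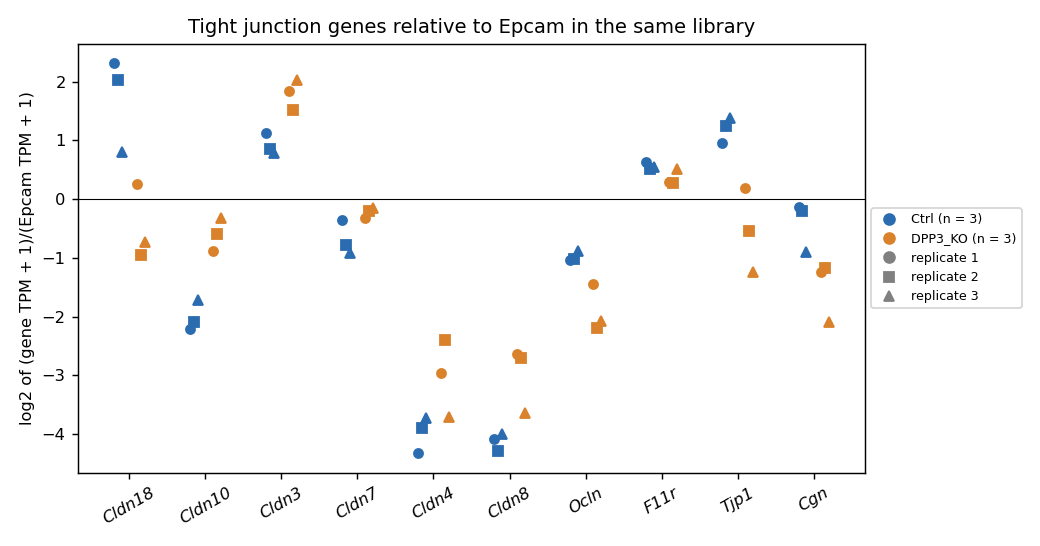
Log2 ratio of each tight junction gene to Epcam (both as TPM + 1) in the same library, for 3 Ctrl and 3 DPP3_KO lung libraries. Cldn18, Tjp1, Ocln and Cgn lie lower in DPP3_KO, the other claudins lie higher, and F11r overlaps.

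Markers of the cells that carry these junctions were read in the same libraries, and their part in the results was not tested. As background, 34.0% of tested genes were lower and 1.38% higher as deposited, and 0.882% were lower and 1.90% higher after scaling. An unadjusted limma p under 0.05 was found for 50.3% of tested genes as deposited and 23.1% after scaling. Of 12 alveolar type 1 genes 10 were lower as deposited and 2 after scaling, with a median log2 change of -1.94 and -1.30, and their summed level was 4274 to 7369 TPM in Ctrl and 1387 to 3018 TPM in DPP3_KO. Of 15 alveolar type 2 genes 5 were lower as deposited and 0 after scaling, a share near that background, with a median of -0.88 and -0.22 and sums of 29832 to 53792 TPM and 21046 to 32811 TPM. Of 15 ciliated cell genes 11 were higher as deposited and 12 after scaling, with sums of 787 to 1069 TPM and 1402 to 1471 TPM, and of 12 club cell genes 4 and then 2 were higher, with sums of 81769 to 114956 TPM and 237894 to 309155 TPM. Sums are as deposited. Scgb1a1 made up most of the club cell sum and Sftpc most of the alveolar type 2 sum in every library. Sec14l3 alone of the club cell genes had a negative log2 change, -1.14 as deposited (limma adjusted p = 0.119) and -0.48 after scaling (adjusted p = 0.576). Of 10 endothelial genes 7 were lower and 3 after scaling, with sums of 2917 to 3489 TPM and 1081 to 1725 TPM. The basal and goblet cell list had 4 of 10 genes tested, 0 called on either scale (limma, 1 with an unadjusted p under 0.05 as deposited and 2 after scaling), and its basal keratin gene Krt5 stood at 0 to 1.66 TPM. Cldn18 was 0.120, 0.113 and 0.0728 times Ager in Ctrl and 0.0531, 0.0701 and 0.0395 times in DPP3_KO, so the groups were apart by a narrow gap (log2 difference -0.88). It was 0.00743, 0.00815 and 0.00413 times Sftpc in Ctrl and 0.00225, 0.00172 and 0.00120 times in DPP3_KO, with a wider gap (log2 difference -1.88). Cldn10 was 0.000136 to 0.000194 times the club cell gene Scgb1a1 in Ctrl and 8.54e-05 to 0.000149 times in DPP3_KO. These overlapped, with a log2 difference of -0.50 (exact permutation p = 0.2). Cldn10 was 0.619, 0.565 and 0.642 times the level of Foxj1, the regulator of motile cilia, in Ctrl and 0.485, 0.453 and 0.651 times in DPP3_KO, which overlapped. Cldn10 to Tnnt2 overlapped as well, at 0.0694 to 0.112 in Ctrl and 0.0646 to 0.0891 in DPP3_KO. Tjp1 was 0.343 to 0.498 times the endothelial cadherin gene Cdh5 in Ctrl and 0.350 to 0.874 times in DPP3_KO, which overlapped too.

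The remaining claudins were few and did not pass. Of 22 others in the table, 8 were at 0 in every library and 7 could be tested, of which 0 were called on either scale (limma, 1 with an unadjusted p under 0.05 on each). Over all tested genes 50.3% had such a p as deposited and 23.1% after scaling. Cldn5, the claudin of endothelium, was the highest of all claudins at 608, 417 and 361 TPM in Ctrl and 334, 230 and 480 TPM in DPP3_KO, with overlapping groups (log2 change -0.43, limma adjusted p = 0.297) and a change of 0.22 after scaling (adjusted p = 0.770), so its sign depends on the scale. Cldn34c1 stood at -0.59 as deposited (limma adjusted p = 0.0842) and -0.20 after scaling (adjusted p = 0.613). Cldn12 stood at -0.68 (adjusted p = 0.233) and -0.09 after scaling (adjusted p = 0.920). Cldn15, a claudin that forms cation channels in gut, stood at 0.71 (adjusted p = 0.158) and 1.31 after scaling (adjusted p = 0.0945), where the groups were apart at 3.94 to 11.8 against 15.3 to 21.6.

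Among other junction membrane proteins 3 of 11 were lower as deposited, near the 34.0% of all genes, and 0 after scaling (1 with an unadjusted p under 0.05, against 23.1% of all tested genes). These were Marveld2, the gene of tricellulin, which seals the corners where 3 cells meet and which lies next to Ocln in the genome (log2 change -1.05, limma adjusted p = 0.0277), Jam2, a junctional adhesion molecule of endothelium (-1.20, adjusted p = 0.0267), and the claudin domain gene Cldnd1 (-0.95, adjusted p = 0.0237). They stood at -0.48, -0.58 and -0.32 after scaling, and Jam3 did not pass on either scale, at -0.29 as deposited and 0.29 after scaling, so that its sign turned.

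Of 31 tested scaffold and polarity genes 22 were lower as deposited, where 34.0% of all tested genes were, and 0 higher. After scaling 1 was lower and 1 higher, where 0.882% and 1.90% of all tested genes were. An unadjusted limma p under 0.05 was found for 24 of the 31 as deposited and 15 after scaling, against 50.3% and 23.1% of all tested genes. The median log2 changes were -1.16 as deposited and -0.53 after scaling, against -0.60 and -0.03 over all tested genes. Arhgef18, a RhoA activator at the apical junction, was the 1 lower on both scales (-1.44, limma adjusted p = 0.0145, and -0.82, adjusted p = 0.0458). Pard6b, of the PAR polarity complex, fell by 1.85 and Pals1, of the Crumbs polarity complex, by 1.503 as deposited (adjusted p = 0.0155 for both), and they stood at -1.22 and -0.89 after scaling (adjusted p = 0.0752 and 0.0859). Tjp3, which encodes the epithelial scaffold ZO-3, stood at 13.3, 13.0 and 9.85 TPM in Ctrl and 14.7, 16.0 and 11.5 TPM in DPP3_KO. Tjp3 did not pass as deposited (log2 change 0.21, adjusted p = 0.438) and was the 1 gene of the list called higher after scaling (0.82, adjusted p = 0.0464), while Cgnl1, the paracingulin gene, stood at -1.07 (adjusted p = 0.0601) and -0.44 after scaling (adjusted p = 0.463).

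Profiles over the 6 libraries were also compared with those of all other tested genes, as the root mean square difference of log2(TPM + 1) after centring each gene. The 4 named genes nearest to Cldn18 were Lamb3, a laminin chain of epithelial basement membrane (0.18), Egfl6 (0.21), the semaphorin gene Sema3b (0.24) and the cell adhesion gene Cadm1 (0.26). Lamb3 stood at 61.0, 59.1 and 22.9 TPM in Ctrl and 14.3, 7.09 and 6.25 TPM in DPP3_KO, and like Cldn18 was lowest of its group in Ctrl replicate 3. Nearest to Cldn10 were Trim63, a ubiquitin ligase gene of striated muscle (0.06), Cidea, a lipid droplet gene of brown fat (0.11), Pcp4l1 (0.13) and Tmem212, a gene of ciliated cells (0.13). Trim63 stood at 1.06 to 1.43 TPM in Ctrl and 2.94 to 5.33 TPM in DPP3_KO, and Cidea at 1.53 to 2.36 TPM and 5.37 to 6.57 TPM. In Ctrl both were thus near the filter of 1 TPM, while Pcp4l1 and Tmem212 were well above it. The measure runs over 6 libraries in 2 groups, and genes of muscle and of ciliated cells stood side by side in it.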

How the data were processed

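Lung RNA was sequenced in 6 libraries, 3 Ctrl and 3 DPP3_KO, prepared with a TruSeq kit from total RNA per the labels' protocols. The authors deposited TPM in 1 matrix. Every column has the same sum, so depth is unknown and no counting interval is given. The matrix also holds gene length, per the file headers. The submitters' processing notes name HISAT2, StringTie, RSEM and GRCm39, with no roles. Strand setting, annotation release and how human reads were handled: not given in the sources used here. GENCODE M21 was used for neighbours and for matching the bases after each start. In it Cldn18, Cldn3, Cldn10 and Tjp1 overlap a gene on the opposite strand. Tjp1 also overlaps genes on its own strand, so the reads of overlapping genes could mix. Groups follow the titles. The title of Ctrl replicate 3 begins with 232 where the others have 231, and was read as a slip.

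Values were analysed as log2(TPM + 1), which understates changes of low genes. The 15650 genes averaging 1 TPM or more were fitted with limma 3.58.1 in R 4.3.3 (eBayes with trend, two-sided, Benjamini-Hochberg threshold 0.05), with the same genes on both scales. Ratios were compared by exact permutation over libraries. Alternatives were quantile normalization, median-of-ratios scaling, a rescaling of TPM that leaves out Scgb1a1, removal of a lowess length trend (span 0.3), pseudocounts of 0.1 and 5, no filter, a mean of at least 5 TPM, limma without trend, robust eBayes, a replicate block, and each library left out. The fit was also run on simulated data with independent noise. These data held no shift in composition between the groups, so that run does not bear on the choice of scale.

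The members, lists and tests were chosen with earlier results of these data known. Named by rule were the members, the 3 smallest p of each junction list with Cldn5, Tjp3, Marveld2, Cgnl1, Jam2 and Jam3, Epcam, Cdh1, the first gene of each marker list, and the 4 nearest profiles of Cldn18 and Cldn10, passing over unnamed gene models; 1 gene that the rule names is not reported here. Nkx2-1, S100a8, Krt7, Elf3 and Sec14l3 were chosen after their values were seen. So were the ratios to Ager, Sftpc, Scgb1a1, Foxj1, Tnnt2 and Cdh5, and those of Cldn3, Cldn4, Cldn7 and Cldn8 to Cldn18.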

Additional observations from a re-analysis of the deposited data

How the results depend on the processing

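Members called lower numbered 4 as deposited, and 0 under median-of-ratios scaling, quantile normalization, rescaling without Scgb1a1, removal of the length trend, and the replicate block with median-of-ratios scaling. Members called higher numbered 1 as deposited, 2 under median-of-ratios scaling, quantile normalization and a mean of at least 5 TPM, and 0 under the replicate block with median-of-ratios scaling, where Cldn10 stood at 1.78, just over the threshold (limma adjusted p = 0.05004). Leaving out each library gave 0 to 5 lower and 0 to 2 higher as deposited, and 0 to 1 and 0 to 2 under median-of-ratios scaling. F11r changed sign, to 0.19 under median-of-ratios scaling with or without the replicate block, 0.10 under quantile normalization and 0.17 with the length trend removed; with each library left out under median-of-ratios scaling it stood at 0.24, 0.19 and 0.12 without Ctrl replicates 1, 2 and 3 and 0.23, 0.28 and 0.060 without DPP3_KO replicates 1, 2 and 3. Cldn7 as deposited changed sign without Ctrl replicate 3, in a range from -0.021 to 0.39 with each library left out. Under median-of-ratios scaling Cldn7 kept its sign with each library left out, at 0.66 to 1.03. The cause of these changes of sign was not tested. The other 8 members kept their direction in every alternative that gave a value; Cldn4 and Cldn8 have none at a mean of at least 5 TPM. The log2 ratio of Cldn10 to Cldn18 differed by 3.17 to 4.21.

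Over all genes, 5321 lower and 216 higher calls became 138 and 297 under median-of-ratios scaling, 140 and 327 under quantile normalization, 423 and 145 without Scgb1a1, 90 and 185 with the length trend removed, and 3093 and 156 with no filter, where 3 members were lower. Without 1 library they ran from 85 to 5049 lower and from 6 to 161 higher. The replicate block gave 4734 and 212 as deposited, with 4 members lower and 1 higher, and 8 and 25 with median-of-ratios scaling. Deviations of libraries with the same replicate number correlated at 0.27, -0.21 and 0.15, and not every library correlated best with its own number, so the numbers were not taken to pair the libraries. TPM keeps no depth, so the reads behind Cldn4 and Cldn8, the lowest members, are unknown.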

Other observations

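Other cell type lists gave these values in the same libraries. Over all tested genes 34.0% were called lower and 1.38% higher as deposited, and 0.882% lower and 1.90% higher after scaling. An unadjusted limma p under 0.05 was held by 50.3% as deposited and 23.1% after scaling. Of 9 leukocyte and platelet genes 2 were lower as deposited and 1 under median-of-ratios scaling, with summed levels of 1377 to 19043 TPM in Ctrl and 570 to 11170 TPM in DPP3_KO. S100a8 made up most of that sum in every library. Ptprc, the common leukocyte antigen gene, stood at 62.0 to 208 TPM and 15.02 to 110 TPM. Of 6 mesothelial genes 0 were called on either scale (limma, 0 with an unadjusted p under 0.05 as deposited and 1 after scaling), and Msln stood at 30.8 to 117 TPM and 54.8 to 90.5 TPM. Of 8 smooth muscle and fibroblast genes 0 were called on either scale (limma, 1 and 2 with an unadjusted p under 0.05), and Acta2 was lowest in Ctrl replicate 3, at 39.4 TPM against 112 to 296 TPM elsewhere. Of 6 tested fat genes 1 was higher and 1 lower as deposited, and 1 higher after scaling, while Adipoq, the adiponectin gene, stood at 0.06 to 1.02 TPM and 0.44 to 4.64 TPM.

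Of 24 tested pan-epithelial genes 1 was lower and 0 higher as deposited, where 34.0% and 1.38% of all tested genes were. After scaling 0 were lower and 1 higher, where 0.882% and 1.90% of all tested genes were. The median log2 changes were -0.33 and 0.30, against -0.60 and -0.03 over all tested genes. The lower gene was Krt7, a keratin of simple epithelia, at 109 to 257 TPM in Ctrl and 68.3 to 76.2 TPM in DPP3_KO, and the groups overlapped after scaling. The gene higher after scaling was Elf3, an epithelial transcription factor, at 13.4 to 14.95 TPM and 17.2 to 24.9 TPM as deposited.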
